A study of Mus musculus with 4 samples.

Results

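The genes described here guide growing axons or hold neurons together at their contacts: ephrins and Eph receptors, semaphorins with their neuropilin and plexin receptors, netrins, Robo receptors, cadherins, protocadherins, contactins and the NCAM family. The rule takes probe sets with exactly 1 platform gene symbol in these families and uses no measured value. The members were nevertheless chosen with earlier results of these data known. The rule found 84 of the 12488 probe sets on the array, or 0.673%, for 63 genes, of which 18 have several probe sets. No probe set with 1 symbol matched a neurexin, neuroligin, Slit or Slitrk gene, and 8 probe sets that each carry the symbols of several protocadherin-alpha genes were left out because no single gene can be named for them.

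Total RNA came from hippocampal area CA1 of C57BL/6J mice, young males that were only handled and serve as the unshocked controls of a study of shocked mice, whose own arrays were not analysed here. There were 4 arrays, 1 each for RNA extracted at 1, 2, 4 and 6 hr, counted from the last shock of the shocked animals. All 4 arrays therefore share genotype, sex, region and treatment and differ in the hour of extraction. The sources used here do not give the number of mice behind each array, no hour has a second array, and the spread over arrays is the only error available.

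Ephrins are membrane-bound ligands, and Eph receptors are the receptor tyrosine kinases they activate in neighbouring cells; together they repel or attract axons in development and shape dendritic spines in the adult hippocampus. Class 3 semaphorins are secreted and act through neuropilin and plexin-A co-receptors, while classes 4 to 7 are mostly membrane-bound and act through plexins. Netrin is a secreted cue for axons, and Robo proteins are the receptors of Slit ligands. Classical cadherins bind like to like across synaptic clefts, and contactins and NCAM are immunoglobulin-type adhesion molecules of axons and synapses.

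CA1 pyramidal neuron markers were present on every array: 4 of 6 listed markers were represented, and all 4 lay above the floor on all 4 arrays. This does not set CA1 apart, since 61.5% of all probe sets did so. Of the listed genes on the array, so did 4 of 5 for dentate granule neurons, 3 of 4 for CA3 and 3 of 3 for thalamus. The floor, 54.6 intensity units, is the 25th percentile of all values, and a value under it is treated as having no order. Median intensity of the arrays was 173 to 204, and 23.4% to 28.3% of values lay under the floor, most of them at 2 hr. Gapdh control probe sets at the 3′ end were 4.84 to 7.56 times as bright as those at the 5′ end, most at 2 hr, and Actb ones 2.99 to 3.44 times. Ttr, a choroid plexus transcript, read 3217 on the 4 hr array and at most 196 elsewhere, while the other measurable choroid plexus and ependyma genes were highest at 1 hr (Folr1, Foxj1) or 2 hr (Kl). The summed thalamus list read 1590.5, 1055, 2303.5 and 1543 at 1, 2, 4 and 6 hr. In bulk tissue, fewer cells of a type and less RNA per cell cannot be told apart.

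As a group the guidance and adhesion genes were about as often measurable in CA1 as other genes. Of the 84 probe sets, 50 (59.5%) lay above the floor on all 4 arrays, against 61.5% of all 12422 probe sets that are not controls, and 12 (14.3%) lay under it on all 4, against 11.5%. Their median level, taken as the geometric mean over arrays with low values set to the floor, was 163 against 181. The families differed in how many of their probe sets read above the floor on all arrays. All 4 ephrin-B, all 6 plexin, all 3 EphB, both neuropilin and both Robo probe sets did so, as did 13 of 21 semaphorin, 8 of 17 cadherin, 5 of 10 EphA, 3 of 5 NCAM and 2 of 5 ephrin-A probe sets. Neither the 3 protocadherin probe sets nor the single Cntnap1 one did. The median level was 557 for ephrin-B, 400.1 for plexins, 141 for EphA receptors, 141 for NCAM, 133 for semaphorins, 111 for cadherins and 58.7 for ephrin-A. A probe set's brightness also depends on its probes, so these medians describe signal and do not rank transcript amounts between genes. With only the brightest probe set of each gene, the medians became 661 for NCAM, 314 for EphA receptors, 213 for cadherins and 208 for semaphorins, since several of those genes also have a dim probe set.

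**Figure D1:**
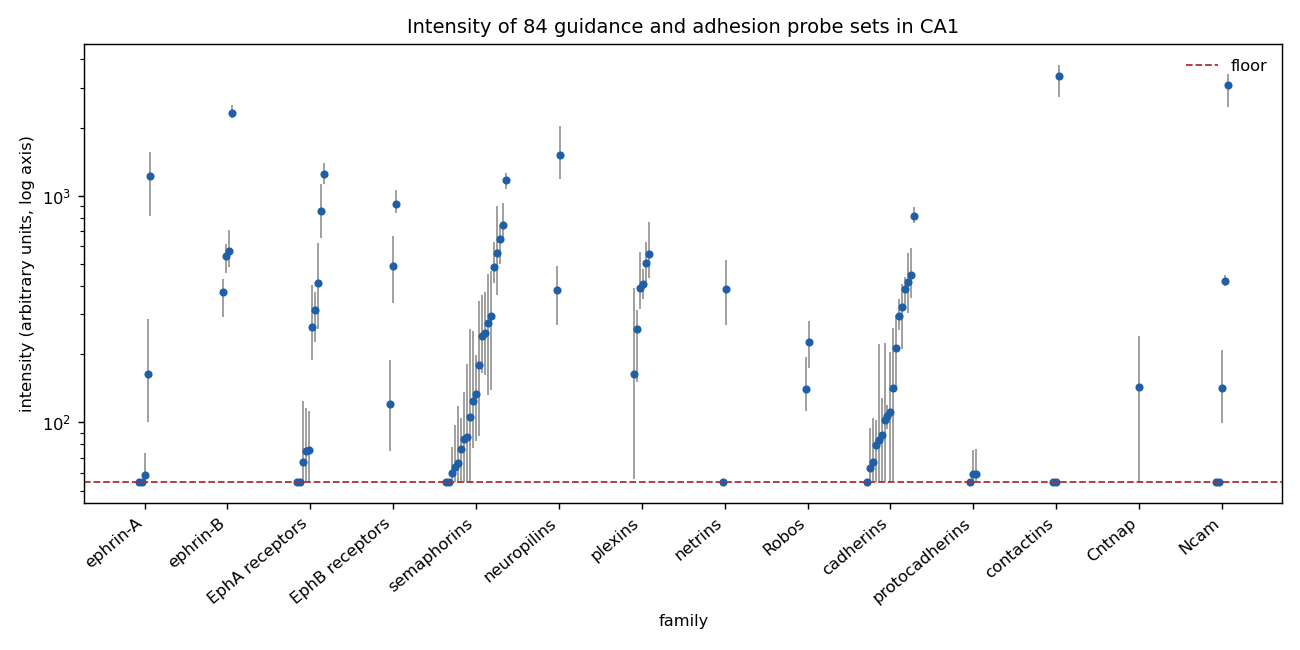
Intensity (log axis) of each of the 84 probe sets, grouped by family along the horizontal axis; points are geometric means over the 4 arrays, vertical lines run from the lowest to the highest array, and the dashed line is the floor of 54.6. Ephrin-B probe sets all sit well above the floor, with a median of 557, while ephrin-A and protocadherin points crowd near it.

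Among the ligands, ephrin-B genes gave steady signal and ephrin-A genes were divided. Efnb3, a transmembrane ephrin of forebrain neurons, read 2196, 2525, 2217 and 2392 at 1, 2, 4 and 6 hr on its brighter probe set. Its highest and lowest arrays were 1.15-fold apart, and the second Efnb3 probe set ranged from 456 to 612. Efnb2, a ligand of EphB and EphA4 receptors, read 618, 707, 507 and 487. Efnb1, the X-linked member, read 421, 376, 293 and 427.5. All 4 ephrin-B probe sets stayed within 1.5-fold over the 4 arrays. Of all tested probe sets 44.9% did so, and of the 50 tested members 16.

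Ephrin-A genes encode ligands anchored by a lipid tail. Efna3 was the brightest of them at 1162, 817, 1492 and 1566, lowest at 2 hr and 1.92-fold higher at 6 hr than at 2 hr. Efna2 read 100.2, 195, 127 and 287, and its highest array was 2.86-fold above its lowest. Efna4 lay under the floor on all 4 arrays. Efna1 reached the floor only at 1 hr, at 55.2, and Efna5 only at 2 hr, at 73.0. Signal thus lay above the floor on all arrays for Efna2 and Efna3 alone among the 5 ephrin-A genes, and that of Efna2 was dim.

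Efna1, Efna3 and Efna4 are direct neighbours on chromosome 3 in RefSeq's annotation of GRCm38.p6, with 0 protein-coding genes between them. Their upstream sequences are shown because these adjacent genes of 1 family gave such different signal. Each is the 250 bases upstream of the gene's outermost annotated start in RefSeq, 5′ to 3′ on the gene's own strand, and capitals mark GC boxes (GGGCGG, or CCGCCC on the other strand), the sequence bound by Sp1-type factors.
Efna1 (GRCm38.p6 chr3:89280952-89281201, minus strand): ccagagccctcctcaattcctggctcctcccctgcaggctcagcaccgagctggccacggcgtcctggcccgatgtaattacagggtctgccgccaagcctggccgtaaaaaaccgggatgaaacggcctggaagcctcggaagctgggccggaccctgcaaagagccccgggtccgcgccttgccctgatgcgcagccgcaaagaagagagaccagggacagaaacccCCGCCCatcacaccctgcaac
Efna3 (GRCm38.p6 chr3:89322940-89323189, minus strand): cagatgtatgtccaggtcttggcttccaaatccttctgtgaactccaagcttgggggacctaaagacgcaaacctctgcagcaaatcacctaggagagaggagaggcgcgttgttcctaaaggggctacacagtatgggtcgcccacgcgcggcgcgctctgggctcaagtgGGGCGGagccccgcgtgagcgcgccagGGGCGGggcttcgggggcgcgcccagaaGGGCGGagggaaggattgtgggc
Efna4 (GRCm38.p6 chr3:89338029-89338278, minus strand): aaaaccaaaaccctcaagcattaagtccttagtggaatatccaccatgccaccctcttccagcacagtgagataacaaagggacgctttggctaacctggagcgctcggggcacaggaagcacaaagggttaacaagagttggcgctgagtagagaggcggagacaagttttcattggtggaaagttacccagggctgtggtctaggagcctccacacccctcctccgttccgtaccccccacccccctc

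The Efna3 window holds 3 GC boxes and 19 CpG dinucleotides, the Efna1 window 1 GC box and 16 CpGs, and the Efna4 window 0 GC boxes and 7 CpGs. The other ephrin-A genes did not extend that order. Efna5, under the floor on 3 arrays, has 4 GC boxes and 32 CpGs, and Efna2, above it on all arrays, has 2 and 25. RefSeq's promoter table matched 46 of the 63 genes, and 32 of these (69.6%) held at least 1 GC box in the same 250 bases, against 33.0% of all 27025 genes in that table. GC boxes were found in 26 of 31 genes whose brightest probe set lay above the floor on all 4 arrays (83.9%) and in 6 of 15 of the rest (40%). Among other genes on the array the corresponding shares were 60.6% and 40.4%, so measurable genes had the higher share there too, by a smaller margin whose difference was not tested. The TATA box (TATAAA, both strands) was found in 1 of the 46 genes, Efnb2, against 13.0% of all genes in the table, and the E-box CACGTG in 3 of 46 (6.5%) against 6.0%. Among other array genes above the floor on all 4 arrays these shares were 7.1% for the TATA box and 9.2% for the E-box. For the rest of the other array genes they were 14.9% and 6.4%. These matches are a description of the letters in this window.

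Of the Eph receptors, those for both ligand classes were measured. Epha5, a receptor for ephrin-A ligands in forebrain neurons, read 1250, 1249, 1131 and 1400 and was the brightest EphA probe set; its second probe set was under the floor at 1 and 6 hr and gave 116 and 89.5 at 2 and 4 hr. Epha7 read 653, 977, 746 and 1132 on one probe set and lay under the floor on all arrays on the other. Epha4, which binds both ephrin classes and acts in spine retraction in CA1, read 376, 330.3, 343 and 227, with a second probe set at or below 112. Epha6 divided the arrays: it read 621 and 585 at 2 and 4 hr but 306.5 and 258 at 1 and 6 hr, a 2.41-fold range. The SD of its log2 values, 0.64, was in the top 10% among probe sets of like level, where the median SD was 0.30. Wfs1, a CA1 pyramidal marker, was ordered in the same way, at 2594 and 2574 at 2 and 4 hr and 1753 and 1668 at 1 and 6 hr. The other CA1 markers, Pou3f1, Man1a and Dcn, did not share that order, and the summed CA1 list ranged from 6207 to 8103 with its maximum at 2 hr; its part in the Epha6 values was not tested. Epha8 read 404 at 1 hr and 188 to 308.5 later. Epha2 lay under the floor on all arrays, and Epha3 rose above it only at 4 hr, at 124.

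EphB receptors were represented by 2 genes. Ephb6, which lacks kinase activity, read 1064, 921, 886 and 836 on its brighter probe set and 469, 337, 667 and 537 on its second, so the arrays were ordered differently by each. Ephb3, a receptor for ephrin-B ligands, read 105, 140.2, 188 and 75.1. No Eph or ephrin probe set that was tested stood 2-fold apart on 1 array.

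Semaphorins were the largest family, with 21 probe sets for 16 genes, including both members with an unadjusted trend p under 0.05, although no semaphorin passed the adjusted test. Sema3e, a secreted ligand of plexin-D1, read 904, 612, 494 and 365 at 1, 2, 4 and 6 hr. Its values were in strict falling order and the first was 2.48-fold above the last. Fitted in limma, the slope was -0.24 ± 0.07 log2 units per hr (SE), with an unadjusted p of 0.0137 and an adjusted p of 0.883 (Benjamini-Hochberg over all 7453 tested probe sets), so the order did not pass the test. The CA3 pyramidal neuron marker Nnat was also highest at 1 hr, at 2015, and read 744, 934 and 982 later. The summed CA3 list, of which 3 of 4 genes lay above the floor on all arrays, read 3767, 2534, 2639.5 and 2354.5. Of its other measurable genes, Bok was highest at 4 hr and Socs2 at 2 hr, and without Nnat the sum was 1752, 1790.2, 1706 and 1373, so the 1 hr maximum of the list came from Nnat alone. Its part in the Sema3e values was not tested.

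The upstream sequence of Sema3e is shown since it had the smallest p of the members; capitals again mark GC boxes, of which it holds 2, beside 7 CpG dinucleotides.
Sema3e (GRCm38.p6 chr5:14025026-14025275, plus strand): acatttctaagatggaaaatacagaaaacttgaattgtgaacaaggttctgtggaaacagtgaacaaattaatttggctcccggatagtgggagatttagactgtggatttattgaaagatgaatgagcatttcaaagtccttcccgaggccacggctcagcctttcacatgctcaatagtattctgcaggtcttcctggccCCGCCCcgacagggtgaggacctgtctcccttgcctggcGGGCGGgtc

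Sema4b, a membrane semaphorin with a carboxy-terminal motif for postsynaptic scaffolds, was measured by 3 probe sets that did not share a time order. The middle one in brightness read 132.5, 241, 453 and 389.5, and its limma slope was 0.31 ± 0.10 (SE; unadjusted p = 0.029, adjusted p = 0.947). Without the 1 hr array this slope was 0.17, and without the 6 hr array 0.57. The brightest read 448, 412, 479 and 624, with a slope of 0.10 ± 0.06, and the dimmest read 197, 100, 195 and 82.5, and had a slope of -0.15 ± 0.13 in log2 units per hr. The direction of Sema4b over time therefore depended on the probe set, and neither of these other slopes passed the test.

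Sema4d, which signals through plexin-B receptors, read 139 at 1 hr and 320, 468 and 364.5 at 2, 4 and 6 hr. Its 1 hr value was at least 2-fold below each other array. The slope of 0.25 ± 0.12 (SE) became 0.05 log2 units per hr without the 1 hr array and 0.54 without the 6 hr array. Sema6d read 375, 219.5, 284 and 162, and Sema6b 364.5, 214, 165 and 257. Sema6c, whose probe set is of incomplete design by its identifier, read 87.2, 242, 342 and 146. The brightest semaphorin was Sema4f, a membrane semaphorin of glutamatergic synapses, at 1135.5, 1253, 1266 and 1072, a range of only 1.18-fold. Sema7a, the lipid-anchored member, read 646 to 928 on one probe set and 76.8 to 252 on the other, which were highest at 4 and 6 hr in turn. Sema4a read 502 to 745 on its brighter probe set and 181, 104, 53.3 and 9.2 on the dimmer one.

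Secreted class 3 semaphorins other than Sema3e were dim. Sema3c lay under the floor on all 4 arrays, Sema3f reached 78.0 at 1 hr only, and Sema3b was under it on all arrays on one probe set and reached 119 at 4 hr on the other. Sema3a, the ligand of neuropilin-1 and plexin-A receptors, read 126 and 136 at 2 and 4 hr and lay under the floor at 1 and 6 hr. Sema5b, a member with thrombospondin repeats, reached 258 at 6 hr and was at most 104.5 on the other arrays, and Sema5a reached 97.2 at 2 hr.

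Receptors for semaphorins were measured on all arrays. Nrp1, the co-receptor for Sema3a, read 1691, 1180, 1292 and 2031 on its brighter probe set and 489, 468, 268 and 352 on the other. The first was highest at 6 hr and the second at 1 hr, their slopes being 0.07 ± 0.09 and -0.13 ± 0.08 in log2 units per hr (SE), neither past the test. The second was -0.30 without the 6 hr array. Among plexins, Plxna1 had the widest range of all tested members, at 207, 153.8, 391.8 and 56.5. Its 6 hr value lay at least 2-fold below each other array, and the highest array, 4 hr, was 6.93-fold above it. Plxna2 read 618, 450, 435 and 765, and Plxna3 340.1, 390.4, 563 and 317. Plxnd1, the receptor of Sema3e, read 399, 478, 624.5 and 547 and was lowest at 1 hr, the array on which Sema3e was highest. Of all tested probe sets 24.3% were lowest at 1 hr, and a relation between the 2 genes was not tested. Plxnb2 stayed between 351 and 476 on one probe set and had 151 at 2 hr against 299 to 313 on the other.

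**Figure D2:**
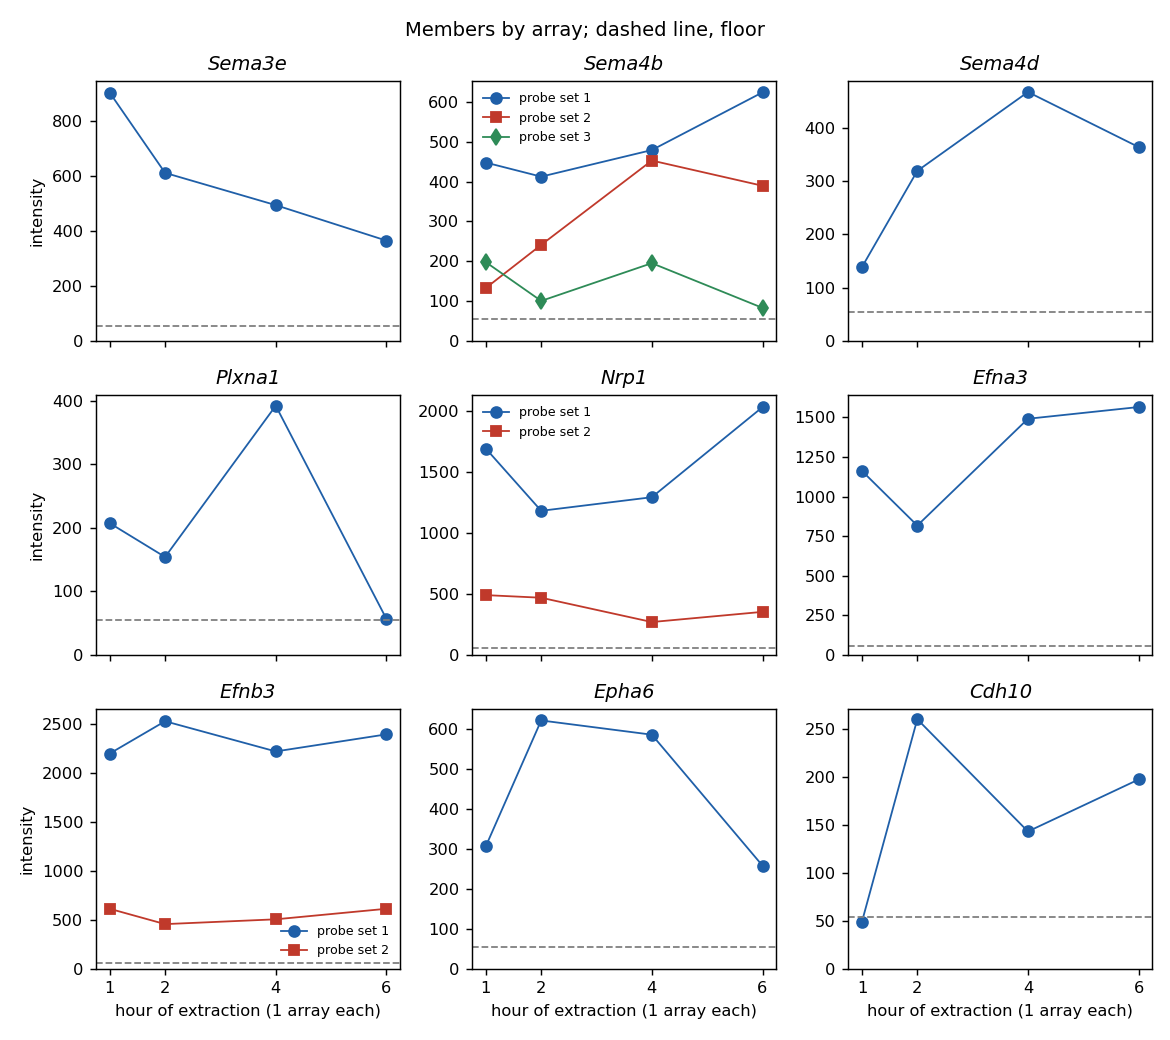
Deposited intensity (vertical axis, linear from 0, a different scale in each panel) against hour of extraction for 9 members, with 1 array at each hour; genes with several probe sets show 1 line for each, numbered from the brightest, and the dashed line is the floor of 54.6. Sema3e goes from 904 to 365, Epha6 is high at 2 and 4 hr, and the lines for Sema4b and Nrp1 do not run in parallel.

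Netrin and Robo genes had moderate signal. Ntn1, the secreted cue itself, read 519, 269.6, 458 and 348 on one probe set and lay under the floor on all arrays on the other. Of its receptors outside the chosen families, Dcc, the attractive receptor, lay under the floor on all 4 arrays, while Unc5c, a repulsive receptor, read 1039, 995, 785 and 1155. Neo1, a relative of Dcc, read 379, 236, 280.4 and 309. Robo1, a Slit receptor, read 226, 238, 174 and 279, and Robo3 read 149, 112, 119 and 193.5.

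The cadherins had 17 probe sets for 13 genes, and their ranges over the arrays ran from narrow (Cdh2) to wide (Cdh10). Cdh2, the N-cadherin of excitatory synapses, was the brightest at 823, 891.5, 756 and 784, within 1.18-fold. Cdh4, or R-cadherin, read 437, 329, 365 and 427 on its brightest probe set, and its other 2 probe sets were under the floor on all or nearly all arrays. Cdh11 read 350.0, 272, 257 and 307, Cdh13, a cadherin anchored by a lipid tail, 212, 375, 407 and 337.5, and Cdh8 221, 297, 145 and 217. Cdh10 lay under the floor at 1 hr and read 261, 143 and 198 later, so its 1 hr value was at least 2-fold below each other array. Cdh3 read 305.5, 349, 562 and 503 on its brighter probe set and 111, 21.9, 124 and 204 on the other. For the brighter one the limma slope was 0.16 ± 0.07 per hr in log2 units (SE, adjusted p = 0.973), and 0.30 without the 6 hr array.

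Cadherins known mainly from other tissues gave mixed signal. Cdh1, the epithelial E-cadherin, read 587, 355, 405 and 481. Cdh16, a kidney cadherin, reached 223 at 1 hr and was at most 72.7 on the other arrays. Cdh15, a muscle cadherin, stayed at or below 128 on both probe sets. Cdh5, the endothelial cadherin, read 168 and 224 at 2 and 4 hr and lay under the floor at 1 and 6 hr. Other endothelial genes did not follow it: Cldn5 read 621, 638.5, 394 and 318 and Pecam1 349, 242, 304 and 236. The summed list of the 6 other endothelial and mural genes, 4 of them above the floor on all arrays, read 1459, 1454, 1251.5 and 1235, and its part in the Cdh5 values was not tested.

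Several cadherin genes are neighbours. Cdh6, Cdh9 and Cdh10 follow each other on chromosome 15 with 0 protein-coding genes between them in RefSeq's annotation. Cdh6 read 93.5 to 119 on the 4 arrays, Cdh9 was at most 105 and under the floor at 1 and 2 hr, and Cdh10 reached 261. Cdh3 and Cdh1 are adjacent on chromosome 8. At 1 hr Cdh1 was highest and the brighter Cdh3 probe set lowest. The dimmer Cdh3 probe set was lowest at 2 hr, under the floor. Cdh8, Cdh11 and Cdh5 also follow each other there, and of these Cdh8 and Cdh11 lay above the floor on all arrays and Cdh5 did not.

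Adhesion molecules of the immunoglobulin type held the brightest probe sets of all members. Cntn1, a lipid-anchored contactin of axons and synapses, read 3507, 3783, 2733.5 and 3537.5, with a range of 1.38-fold. Cntn3 and Cntn4 lay under the floor on all 4 arrays. Ncam1, the neural cell adhesion molecule, read 2477, 3430.1, 3429 and 3131 on its brightest probe set, lowest at 1 hr. A second Ncam1 probe set, of a type shared among similar sequences, read 416, 398, 446.5 and 422.5, and the third lay under the floor on all arrays. Ncam2 read 160.3, 99.1, 209.5 and 119.7 on one probe set and lay under the floor on all arrays on the other. Cntnap1, the Caspr protein of the axon beside the node of Ranvier, lay under the floor at 2 hr and read 139, 239.8 and 229 at 1, 4 and 6 hr. The protocadherins Pcdh7 and Pcdh12 were at most 76.4. That does not hold for protocadherins in general, since the left-out protocadherin-alpha probe sets ranged widely. The brightest of them read 3221, 3486, 2505 and 3673.5, and the dimmest 17.5 to 22.9.

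No guidance or adhesion gene changed in a straight line with the hour of extraction past the threshold. Of the 50 tested members, those with a mean level above the 40th percentile, 0 had a Benjamini-Hochberg adjusted p under 0.05 in limma, and 0% of all 7453 tested probe sets did. At an unadjusted p under 0.05 there were 2 of 50 members (Sema3e and 1 probe set of Sema4b), against 5.13% of all tested probe sets, so the members' share of 4% was near the background. Of these, 1 had a rising slope, where 2.87% of all tested probe sets did, and 1 a falling slope, where 2.25% did. Values in strict falling order were found for Sema3e and the brighter Ephb6 probe set, 2 of 50 against 3.37% of all, and in strict rising order for 0 of 50 against 4% of all. A positive slope was found for 27 of the 50, or 54%, against 50.9%. Ordinary least squares gave 0 members after adjustment and 1 unadjusted. The count at an unadjusted p under 0.05 was 4 without the 2 hr array, 5 without the 4 hr array and 4 without the 6 hr array. The share of all tested probe sets was not computed with an array left out, so these counts cannot be set against 5.13%. Since the labels do not say whether each array had its own animals, these p-values rest on scatter about a line that may be technical.

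**Figure D3:**
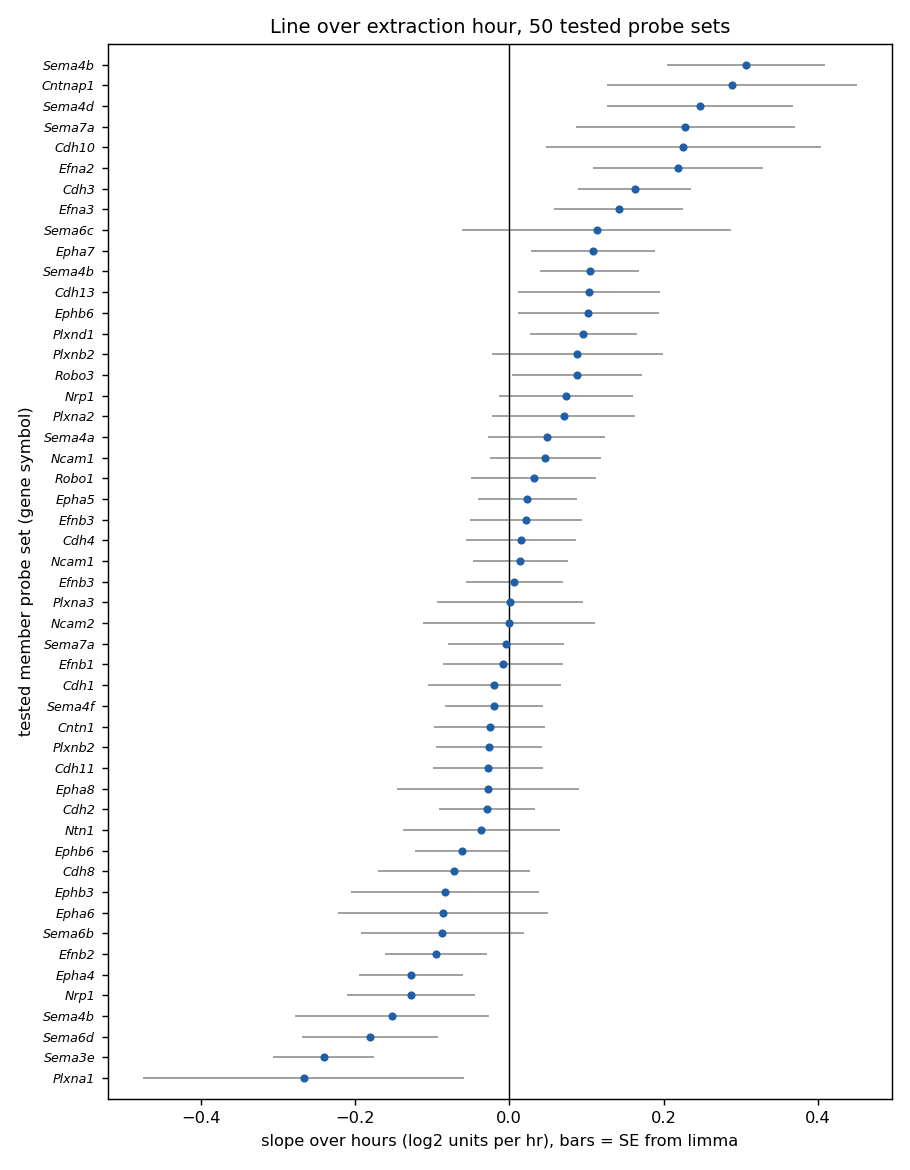
Slope over the hour of extraction (horizontal axis, log2 units per hr, bars are SE from limma) for the 50 tested member probe sets, sorted and named by gene; genes with several tested probe sets appear more than once. Slopes lie on both sides of 0, 27 of them above it, and Sema4b appears near both ends.

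Standing 2-fold or more apart on 1 array was as frequent among the members as elsewhere. It was found for 4 of 50 tested members, or 8%, against 7.53% of all tested probe sets. The 4 were Cdh10 and Sema4d, low at 1 hr, Cntnap1, low at 2 hr, and Plxna1, low at 6 hr. All 4 were low on their array, a direction found for 6.37% of all tested probe sets; 0 members stood 2-fold above the others, against 1.36%. At 1 hr the low members were 2 of 50 against 1.88% and the high ones 0 against 0.47%. At 2 hr these were 1 against 1.88% and 0 against 0.188%. At 4 hr they were 0 against 1.18% and 0 against 0.322%, and at 6 hr 1 against 1.44% and 0 against 0.376%. The counts per array are thus too small to set one array apart for these families. Without the filter on level the count was 9, the others being Sema5b, Cdh16, Epha3, Sema3b and the dim Cdh3 probe set. That is 10.7% of the 84, near the 9.58% of all 12422 probe sets. The count was 1 with a stricter filter, 2 with a higher floor and 7 without the 2 hr array. For these settings the share of all tested probe sets was not computed, so the counts have no background beside them. The highest value of the 50 members fell on the 1 hr array for 12, against 25.9% of all tested probe sets, on the 2 hr array for 9, against 24.4%, on the 4 hr array for 16, against 26.5%, and on the 6 hr array for 13, against 23.2%. The lowest value fell on the 1 hr array for 12, against 24.3%, on the 2 hr array for 14, against 29%, on the 4 hr array for 12, against 24.3%, and on the 6 hr array for 12, against 22.3%. The 4 hr array thus held the most maxima and the 2 hr array the fewest, and these differences from the background were not tested.

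The median spread over arrays was widest, among families with at least 2 tested probe sets, for ephrin-A and semaphorins and narrowest for NCAM and ephrin-B genes; the difference between families was not tested. The median SD of log2 values was 0.55 for the 2 tested ephrin-A probe sets and 0.53 for the 12 tested semaphorin probe sets. This median was 0.41 for EphB receptors, 0.38 for neuropilins, 0.38 for plexins, 0.37 for cadherins and 0.36 for EphA receptors. For Robos it was 0.32, for ephrin-B 0.23 and for NCAM 0.22, against 0.29 for all tested probe sets. Without the 1 hr array it was 0.22 for cadherins and 0.08 for NCAM. Dim probe sets vary more: the median SD was 0.66 in the dimmest 10% of tested probe sets and 0.17 in the brightest 10%. Set against probe sets of like level, an SD above the median was found for 30 of the 50 members. By family, these were 8 of 12 semaphorin, 5 of 6 plexin, 5 of 8 cadherin and 3 of 5 EphA probe sets. They also included 2 of 2 ephrin-A, 2 of 2 neuropilin, 1 of 3 EphB and 1 of 3 NCAM probe sets. The single tested contactin, Cntnap1 and netrin ones were among them too, but 0 of 4 ephrin-B and 0 of 2 Robo probe sets were. A range of 2-fold or more was found for 18 of 50 members, or 36%, against 25.3% of all tested probe sets. An SD in the top 10% for its level was found for 7 of 50 members, or 14%, against 10.1%. These were Sema3e, Sema4b, Sema4d, Plxna1, Nrp1, Efna3 and Epha6. With only probe sets above the 60th percentile of level, the semaphorin median was 0.26.

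**Figure D4:**
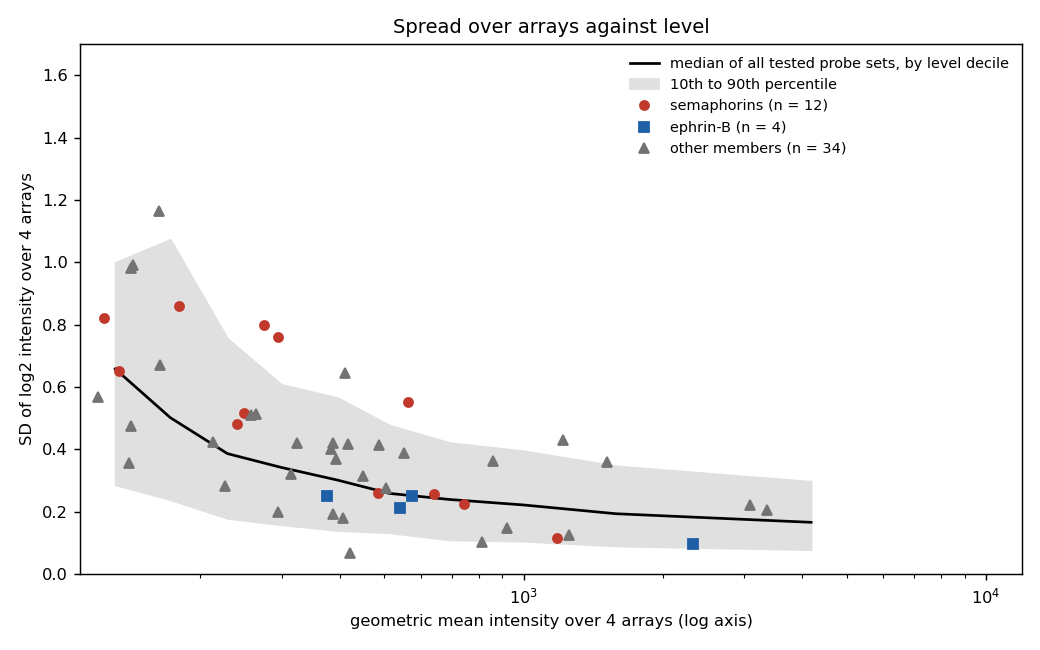
SD of log2 intensity over the 4 arrays (vertical axis) against geometric mean intensity (horizontal log axis) for the 50 tested members; the line is the median and the band the 10th to 90th percentile of all tested probe sets in 10 groups of like level. Semaphorins (circles) include points above the band, such as Sema3e at 0.55, and ephrin-B probe sets (squares) lie on or below the line.

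Different probe sets of a gene seldom agreed on which array was highest. The 7 member genes with several tested probe sets, Efnb3, Ephb6, Ncam1, Nrp1, Plxnb2, Sema4b and Sema7a, gave 9 pairs. In 0 of the 9 pairs was the same array highest, and in 3 did the slopes share a sign (33.3%). Over all genes on the array with several tested probe sets, 29.9% of 1175 pairs shared the highest array and 53.1% the sign of the slope. The array-to-array differences of single probe sets given above were thus seldom repeated by a second probe set where there was one. Sema4b, with 3 tested probe sets, gave more of the pairs than any other gene. By their identifiers, the brightest Sema4b probe set and the second ones of Ephb6 and Ncam1 are of incomplete or shared design. The part of probe design in the disagreement was not tested.

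Partners of these families outside the rule were no more ordered in time. Of 56 listed genes for receptors, signalling, catenins and synaptic scaffolds, 37 were on the array, with 39 tested probe sets, and 0 passed limma's adjusted test. Of the 39, 21 had a slope above 0 and 1 had an unadjusted p under 0.05. That was Srgap2, a regulator of the Rac GTPase in Slit and Robo signalling, at 106, 145, 147.5 and 215. Nck2, an adaptor downstream of Eph receptors, was below 54.6 at 2 hr and between 143 and 179 on the remaining arrays. Tiam1, an activator of Rac, was under the floor at 6 hr on one probe set and at 289 to 629 on the other. After Srgap2 and Tiam1, the smallest p-values by direction of slope were those of Adam10, a protease that sheds ephrins and N-cadherin, at 136, 140.1, 149 and 177, and of Jup, the plakoglobin of cadherin junctions, at 261, 339, 196 and 184. A second Adam10 probe set read 407, 576.5, 373 and 459, with another order. Ctnnb1, the catenin that links cadherins to the cytoskeleton, ranged from 5232 to 6478.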

How the data were processed

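For 12488 probe sets the authors deposited a linear intensity on each array; software and summary method were not given in the sources used here. On the deposited scale the mean after trimming 2% at each end was 500.3 on all 4 arrays, so the arrays had been scaled to each other, and that was kept. Gene symbols came from the platform's table, and all 63 member symbols matched RefSeq genes (GRCm38.p6) through the Entrez identifier. Values under 54.6 were raised to 54.6, the floor, before log2 was taken of the deposited values; fold ranges are on this floored scale. The 66 control probe sets were left out, and 7453 probe sets, those whose log2 mean exceeded the 40th percentile, were fitted with a line over hours in limma 3.58.1 (R 4.3.3), with 2 residual degrees of freedom. The fit was tested on simulated data whose slopes were steeper than those of all tested members. That simulation therefore does not cover slopes of the size seen here. A probe set stood apart when it lay at least 1 log2 unit from each other array. Genes named were the brightest and the widest-ranging of each family, those standing apart, the 5 smallest p in each direction and genes with several probe sets; others are given to account for the families, chosen after their values were seen. The members and lists were chosen with earlier results of these data known. Alternatives were other scalings, floors, filters, time scales and variance models, and each array left out. No detection calls were used, and the number of arrays limits the precision.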

Additional observations from a re-analysis of the deposited data

How the results depend on the processing

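No member and no probe set passed the adjusted trend test under any of the 14 alternatives. The smallest adjusted p of that test was 0.652 among members and 0.354 among all tested probe sets. The 10 member slopes named for their p, 5 in each direction, kept their sign under the 12 alternatives run for them. For some alternatives this was fixed in advance: a variance model does not alter a slope, nor does a floor that lies below all values of a probe set. The count of members at an unadjusted p under 0.05, which was 2, became 4 with the floor at the 40th percentile, 1 without a filter and 1 by ordinary least squares, and ran from 2 to 5 with each array left out. The count standing 2-fold apart, which was 4, became 2 with the floor at the 40th percentile, 9 without a filter and 1 with the filter at the 60th percentile, and ran from 5 to 7 with each array left out. Apart from the 2-fold count without a filter, the shares of all probe sets under these alternatives were not computed. The changes in these counts therefore cannot be set against a background. The median log2 level moved with the floor: for ephrin-A it was 5.30 with the floor at the 10th percentile, and with it at the 40th it was 6.95 for ephrin-A, 7.27 for cadherins, 7.50 for EphA receptors, 7.28 for semaphorins and 7.54 for all members. With 1 probe set per gene it was 7.74 for cadherins, 8.29 for EphA receptors, 9.37 for NCAM, 7.70 for semaphorins and 7.91 for all members. Without probe sets of incomplete or shared design, an alternative chosen after seeing the data, it was 7.44 for cadherins and 6.46 for NCAM. With each array left out it ran from 7.20 to 7.60 for all members and from 7.17 to 7.29 for semaphorins. The median SD was 0.21 for ephrin-A without a filter and 0.26 for semaphorins with the filter at the 60th percentile. Floor, filter and probe-set settings change which probe sets are kept or floored; the cause of the moves with an array left out was not tested. No paired analysis was possible because each hour has 1 array and the groups share a single replicate number. Values near the floor limit what can be said of the dim members.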
